A study of Mus musculus with 12 samples.

Results

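The core circadian clock loop was followed through 8 genes, Arntl (also called Bmal1), Clock, Npas2, Per1, Per2, Per3, Cry1 and Cry2, in brown adipose tissue of mice. A gene was taken when a probe set carried its symbol alone, and the probe set with the highest mean over the arrays was used where there were several. This gave 7 of the 8 genes, of 22180 genes so represented. Per2 shared its probe set with a second symbol and was not analysed here.

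Brown adipose tissue had been profiled on 12 whole-transcript arrays, in 4 groups of 3 arrays, each array labelled as a mouse of its own. The knockouts carried a floxed Sel1L gene and a Cre recombinase driven by the Adiponectin promoter, which deletes the gene in adipocytes, on a C57BL/6J background. Controls were littermates with the floxed gene and without Cre, and the labels call them wildtype. All mice went without food for 5 h, kept either at room temperature or in the cold (4 °C). The design asks what loss of Sel1L, which helps to clear misfolded proteins out of the endoplasmic reticulum, changes at each temperature. Ages, sexes and the time of day at which tissue was taken are not given in the sources used here. Nothing says how the mice were spread over litters or days, so p-values measure only the spread between these arrays. The labels speak of brown adipose tissue and the series' design text of isolated brown adipocytes, and RNA of other cell types was looked for in the arrays.

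The circadian clock is a feedback loop of transcription that runs in most mammalian cells, brown adipocytes among them. Arntl protein pairs with Clock or with its relative Npas2, and the pair binds E-box sequences to switch on the Per and Cry genes. Per and Cry proteins then return to the nucleus and hold the pair in check. In a second loop, nuclear receptors of the REV-ERB and ROR families act on Arntl through ROR elements (ROREs), and the PAR bZIP factors Dbp, Tef and Hlf and their antagonist Nfil3 act through D-boxes. Some Per genes also answer directly to cyclic AMP, to glucocorticoids and to temperature, so that their RNA levels can move apart from the rest of the loop.

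Promoter windows show which of these elements lie near the start of each gene, and are shown because the members moved in different directions in the cold. RefSeq windows (build GRCm38.p6) running from 250 bases before to 50 bases after an annotated start were found for 7 of the 8 genes. They made 11 windows, 2 for Arntl, 3 for Clock, 2 for Per1 and 1 for each of the others. Both strands were searched for the E-box CACGTG, the E'-box CACGTT, the D-box TTATGTAA, the cyclic AMP response element TGACGTCA, its shortened form TGACGT, and the RORE core AGGTCA. The shortened form lies within the full element, so that the matches of these overlap. Matches are in capitals, with each sequence printed 5′ to 3′ on the strand of its gene, so that a match on the other strand appears as its reverse complement.
Per3 (chr4:151044616-151044915, minus strand): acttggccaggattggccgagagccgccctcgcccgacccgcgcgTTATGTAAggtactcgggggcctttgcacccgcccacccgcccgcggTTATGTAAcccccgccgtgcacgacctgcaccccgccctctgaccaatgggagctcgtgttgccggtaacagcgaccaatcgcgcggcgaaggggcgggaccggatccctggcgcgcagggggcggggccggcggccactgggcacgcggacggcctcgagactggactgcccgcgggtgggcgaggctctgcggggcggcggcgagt
Arntl, second window (chr7:113207261-113207560, plus strand): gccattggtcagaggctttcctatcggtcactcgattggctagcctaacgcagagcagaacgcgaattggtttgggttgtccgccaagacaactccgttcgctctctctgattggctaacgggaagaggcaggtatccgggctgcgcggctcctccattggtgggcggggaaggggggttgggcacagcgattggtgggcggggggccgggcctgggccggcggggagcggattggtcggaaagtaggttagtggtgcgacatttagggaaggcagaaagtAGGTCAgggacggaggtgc
Npas2 (chr1:39194022-39194321, plus strand): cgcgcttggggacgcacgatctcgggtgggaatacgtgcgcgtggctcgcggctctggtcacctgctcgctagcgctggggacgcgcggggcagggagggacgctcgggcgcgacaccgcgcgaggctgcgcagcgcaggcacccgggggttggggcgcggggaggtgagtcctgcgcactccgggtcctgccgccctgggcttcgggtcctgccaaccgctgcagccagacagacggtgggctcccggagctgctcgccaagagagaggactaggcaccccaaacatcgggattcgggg
Cry1 (chr10:85185005-85185304, minus strand): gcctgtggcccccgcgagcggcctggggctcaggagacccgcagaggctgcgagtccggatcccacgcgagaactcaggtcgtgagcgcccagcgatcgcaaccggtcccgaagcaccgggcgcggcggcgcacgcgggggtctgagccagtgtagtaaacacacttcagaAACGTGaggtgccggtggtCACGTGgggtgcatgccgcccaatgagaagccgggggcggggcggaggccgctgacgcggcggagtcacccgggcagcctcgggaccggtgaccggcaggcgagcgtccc
Per1, first window (chr11:69098699-69098998, plus strand): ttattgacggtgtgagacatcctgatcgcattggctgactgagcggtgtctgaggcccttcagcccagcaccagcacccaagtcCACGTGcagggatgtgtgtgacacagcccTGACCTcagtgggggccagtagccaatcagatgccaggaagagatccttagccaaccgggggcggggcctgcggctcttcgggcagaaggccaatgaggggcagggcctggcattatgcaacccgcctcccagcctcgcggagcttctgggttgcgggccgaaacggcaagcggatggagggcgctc
Per1, second window (chr11:69099902-69100201, plus strand): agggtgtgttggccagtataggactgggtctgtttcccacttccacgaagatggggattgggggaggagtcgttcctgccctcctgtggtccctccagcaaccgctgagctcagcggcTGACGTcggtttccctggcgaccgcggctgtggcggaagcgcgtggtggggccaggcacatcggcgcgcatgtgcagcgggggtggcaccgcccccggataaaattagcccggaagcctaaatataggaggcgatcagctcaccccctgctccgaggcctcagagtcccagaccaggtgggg

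The Per3 window held 2 D-boxes, whose first bases lie at -205 and -158 from the start. A D-box was found in 0.938% of the 32851 windows of this length in the RefSeq table. Cry1 had an E-box at -60 and an E'-box at -79, against 7.15% and 4.68% of all windows. The first window of Per1 had an E-box at -166 and a RORE core at -137, and its second window had the shortened cyclic AMP element at -132. The second Arntl window held 1 RORE core, 31 bases after the start, an element found in 16.3% of all windows, and 1 of the 3 Clock windows held another at -119. The shortened cyclic AMP element was in 7.51% of all windows and the full element in 1.79%. Cry2 had an E'-box at -166. The Npas2 window held none of these letters, which says nothing about elements elsewhere at that gene. A match is a description of the sequence and not a measured binding site.

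**Figure D1:**
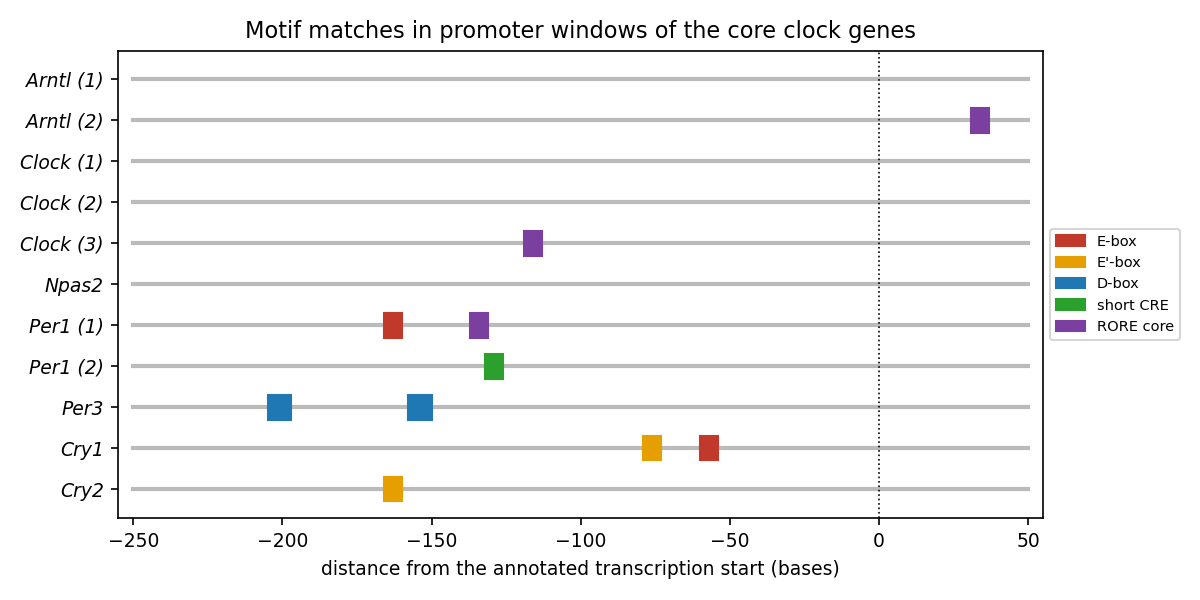
Motif matches in the RefSeq promoter windows of the 7 measured clock genes (window number in parentheses), plotted by distance in bases from the annotated start, with colours for the kinds of motif (short CRE, the shortened cyclic AMP element). The 2 D-boxes of Per3 lie at -205 and -158, and Npas2 has no match.

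Values are log2 expression after RMA, where a difference of 1 is a doubling, and array medians ran from 2.03 to 2.09. Ucp1, the uncoupling protein that marks brown fat, read high on every array, between 12.38 and 12.83. The mean of 8 brown adipocyte markers, Ucp1 among them, was 9.87 in controls and 9.94 in knockouts at room temperature. At 4 °C it was 10.04 and 9.83. Of the 8, Pparg was lower in cold knockouts than in cold controls (-0.78, adjusted p = 0.0144, limma), where 2.19% of all probe sets were. Elovl3 rose in cold controls (1.83, adjusted p = 0.000342), where 4.85% did, and differed by 0.75 in cold knockouts (adjusted p = 0.0501). The other comparisons called 0 of 8. The deleted gene, Sel1l, averaged 7.19 ± 0.21 (SD, n = 3) in controls and 6.06 ± 0.13 in knockouts at room temperature, a fall called by limma (adjusted p = 0.00114). At 4 °C it averaged 6.91 ± 0.19 and 6.72 ± 0.18 (adjusted p = 0.605), so that its reading did not check the knockout label there, and no source used here places its probe set relative to the deleted part. Sel1l rose in cold knockouts by 0.66 (adjusted p = 0.0124, limma) and differed by -0.28 in cold controls (adjusted p = 0.28). These cold responses differed by 0.94, which was not called (adjusted p = 0.0862). Replicate 3 of the controls at room temperature is labelled 4 °C in 1 field and room temperature in others, and it was kept at room temperature. The mean of 14 skeletal muscle markers ranged widely, from 6.60 to 7.57 in controls and 2.82 to 6.55 in knockouts at room temperature, and from 4.90 to 8.08 and 2.41 to 6.86 at 4 °C, with 0 of 14 called by limma in any of the 5 comparisons. Of these 14, 9 had an unadjusted p under 0.05 between genotypes at room temperature, and 0 in the other 4 comparisons. No share of all probe sets was counted at that unadjusted threshold, here or below. Of all probe sets, the 5 comparisons called from 0.306% to 11.1%. The means of 8 macrophage markers (5.19 to 6.15) and of 8 endothelial markers (6.56 to 7.16) varied less over the arrays. In each list limma called 0 of 8 between genotypes at either temperature. At an unadjusted p under 0.05 there were 0 macrophage markers at either temperature. Of the endothelial markers there were 2 at room temperature (Tek and Emcn) and 2 at 4 °C (Pecam1 and Kdr), each lower in knockouts. Of all probe sets limma called 1.72% between genotypes at room temperature and 5.8% at 4 °C. In the cold limma called 1 of 8 macrophage markers higher in each genotype, Itgam in controls and Mrc1 in knockouts. Itgam differed by 0.86 in controls (adjusted p = 0.0258) and 0.75 in knockouts (0.0549), and Mrc1 by 0.51 (0.0725) and 0.59 (0.0443). Neither gene was called for a difference between these responses. Of 8 endothelial markers, 2 rose and 2 fell in controls, and 1 rose and 2 fell in knockouts. Of all probe sets, 4.85% were called higher and 6.23% lower in cold controls, and 4.32% and 4.7% in cold knockouts. The tissue is a mixture, so fewer cells of a type and less RNA per cell cannot be told apart.

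Between room temperature and 4 °C limma called 4 of the 7 measured genes in controls and 6 in knockouts. These counts ranged from 2 to 5 and from 4 to 6 with 1 array left out. The time of day of sampling is not given. A difference in it between groups was not tested and cannot be told apart from temperature or genotype. In controls 3 of the 7 genes (Arntl, Clock and Npas2) rose at 4 °C and Per3 fell, where limma called 11.1% of all 23521 probe sets (adjusted p under 0.05), 4.85% higher and 6.23% lower. In knockouts 5 (Arntl, Npas2, Per1, Cry1 and Cry2) rose and Per3 fell, where 9.03% of all probe sets were called, 4.32% higher and 4.7% lower. The median difference of the 7 genes was 0.55 in controls and 0.75 in knockouts, against -0.01 for all probe sets in both. Between genotypes at room temperature 0 of the 7 genes were called by limma (1 at an unadjusted p under 0.05, Per3), with 1.72% of all probe sets called (1.29% higher and 0.429% lower). In that comparison 9 of the 14 muscle markers were lower in knockouts at an unadjusted p under 0.05. No share of all probe sets was counted at that threshold. With the muscle mean as a covariate 0 of the 7 clock genes were again called. That covariate moved the room temperature differences both ways, to -0.087 for Arntl, 0.076 for Clock, 0.50 for Npas2, -0.12 for Per1, -0.50 for Per3, -0.33 for Cry1 and -0.23 for Cry2. At 4 °C Npas2 was higher and Clock lower in knockouts, 2 of 7, with 5.8% of all probe sets called (3.61% higher and 2.19% lower). Only Npas2, 1 of 7, was called for a difference between the cold responses of the genotypes (2 of 7 at an unadjusted p under 0.05), a test that called 0.306% of all probe sets (0.23% higher and 0.0765% lower). The cold comparisons share arrays with the genotype comparisons, so these sets of values are not independent. If the control array of conflicting label is counted with the cold controls, limma calls 0 of 7 genes and 0 of all probe sets for cold in controls.

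**Figure D2:**
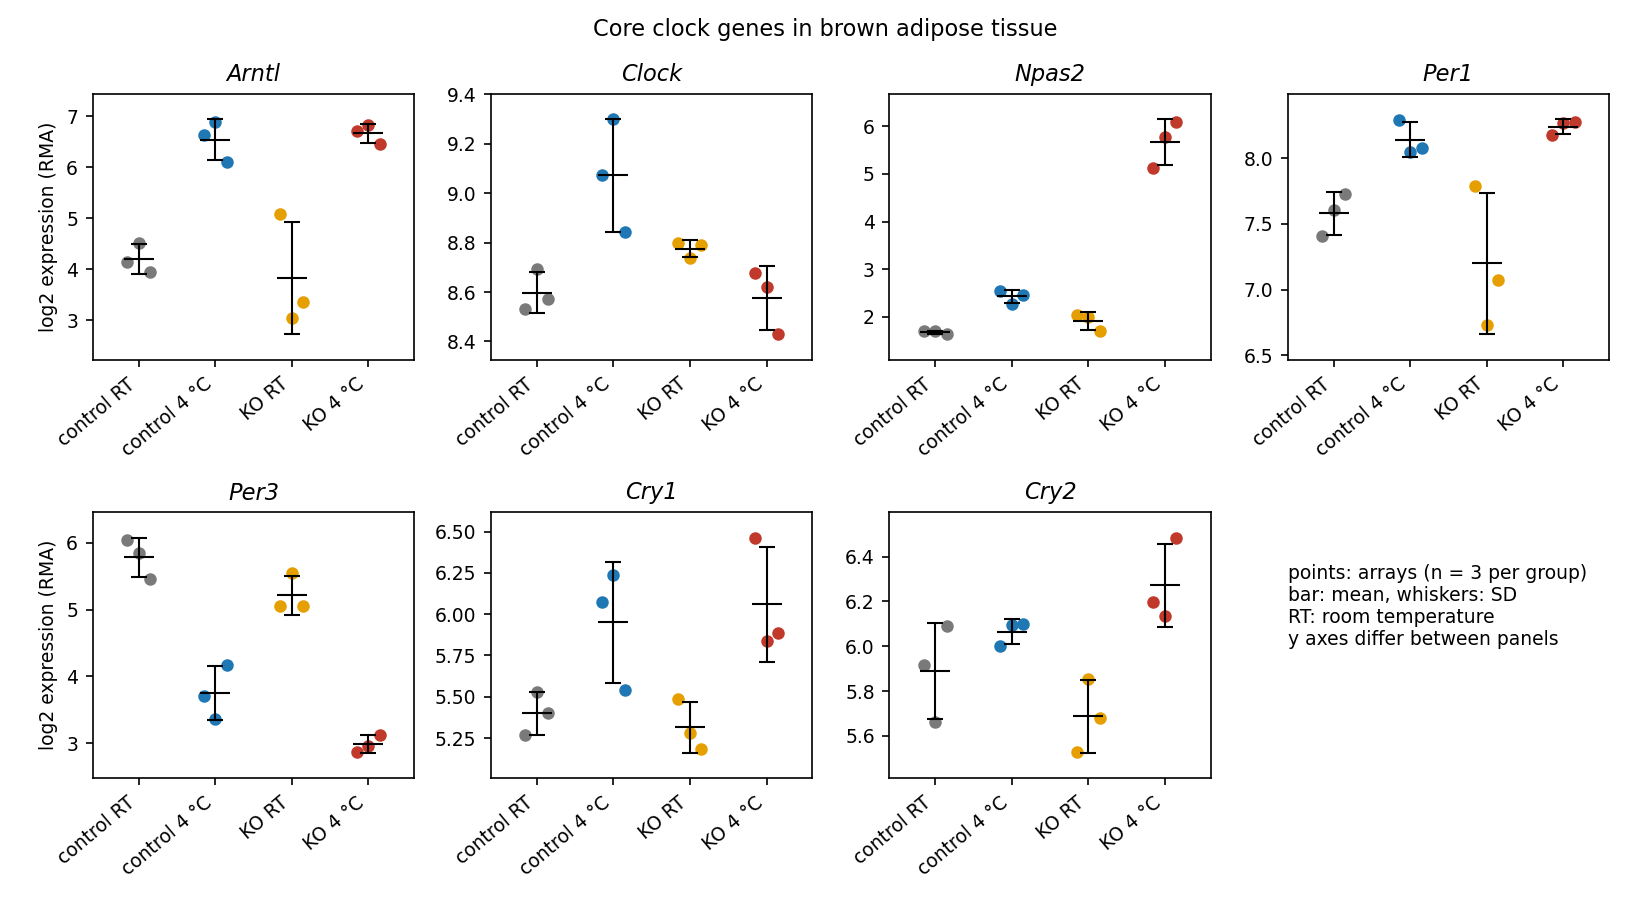
Log2 expression (RMA, y axis) of the 7 clock genes by group on the x axis, with 1 point per array, the mean as a bar and the SD as whiskers (n = 3 per group, y axes differ). Arntl is high and Per3 low in both cold groups, and Npas2 reaches 5.13 to 6.08 in the cold knockouts while the other groups stay at or below 2.55.

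Arntl encodes the partner shared by the pairs with Clock and with Npas2. It read 4.14, 4.52 and 3.95 in controls at room temperature, and 6.62, 6.89 and 6.10 in controls at 4 °C. In knockouts it read 5.07, 3.04 and 3.36 at room temperature, and 6.71, 6.82 and 6.45 at 4 °C. All 6 cold arrays lay above all 6 at room temperature, while the genotypes overlapped at room temperature and at 4 °C. The rise in the cold was 5.05-fold in controls (log2 2.34 ± 0.41 SE, adjusted p = 0.00297, limma) and 7.15-fold in knockouts (2.84 ± 0.41, adjusted p = 0.00105). The cold responses differed by 0.50 (95% interval -0.74 to 1.75, adjusted p = 0.849). With the control array of conflicting label counted as cold, the rise in controls was 1.56 (adjusted p = 0.322), and with it left out 2.21 (adjusted p = 0.0134). Knockout replicate 1 at room temperature stood above both of its group mates. Without it the genotypes differed by -1.004 at room temperature (adjusted p = 0.0632), against -0.38 ± 0.41 with it (adjusted p = 0.786). In that array Per1 was also the highest of its group, and the muscle mean was 6.55 against 2.82 and 3.80. With the muscle mean as a covariate over all arrays, the genotype difference of Arntl was -0.087 at room temperature (adjusted p = 0.981) and 0.24 at 4 °C (adjusted p = 0.863).

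Clock, the usual partner of Arntl, moved least among the activators. It read 8.53, 8.69 and 8.57 in controls at room temperature and 9.07, 9.30 and 8.84 at 4 °C. In knockouts it read 8.80, 8.74 and 8.79 at room temperature and 8.68, 8.62 and 8.43 at 4 °C. The control groups did not overlap between temperatures, and every knockout lay above every control at room temperature and below every control at 4 °C. It rose 1.39-fold in cold controls (0.47 ± 0.12, adjusted p = 0.0265), and in knockouts it differed by -0.20 ± 0.12 (adjusted p = 0.424). At 4 °C it was 1.41-fold lower in knockouts (-0.50 ± 0.12, adjusted p = 0.0333). The difference between the cold responses, -0.67 ± 0.17, was not called (adjusted p = 0.158, unadjusted p = 0.00211). Both calls were fragile. That in cold controls ended on leaving out control replicate 1 (adjusted p = 0.0917) or 3 (0.0721) at room temperature, or replicate 1 (0.0734) or 2 (0.113) at 4 °C. That between genotypes at 4 °C ended on leaving out control replicate 1 (0.0963) or 2 (0.117), or knockout replicate 1 (0.0534), 2 (0.081) or 3 (0.135), at that temperature.

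Npas2, which can take the place of Clock beside Arntl, gave the clearest genotype difference of the loop. It read 1.70, 1.70 and 1.64 in controls and 2.05, 1.99 and 1.70 in knockouts at room temperature, at or below the array medians. At 4 °C it read 2.55, 2.28 and 2.45 in controls and 5.13, 5.77 and 6.08 in knockouts. The cold knockouts thus stood well clear of the other arrays. These arrays are knockouts by their labels, which Sel1l did not check at 4 °C. Npas2 rose 13.4-fold in cold knockouts (3.74 ± 0.19, adjusted p = 8.56e-07) and was 9.38-fold higher in knockouts than in controls at 4 °C (3.23 ± 0.19, adjusted p = 6.2e-07). At room temperature the genotypes differed by 0.23 (95% interval -0.19 to 0.66, adjusted p = 0.699), and by 0.50 with the muscle mean as a covariate (adjusted p = 0.408). The cold responses differed by 3.00 ± 0.28 (adjusted p = 0.000515, limma), higher in 3 of 3 cold knockouts. With each single array left out this difference stayed between 2.79 and 3.26, with adjusted p from 5.27e-05 to 0.00357. With the muscle mean as a covariate it was 2.84 (adjusted p = 0.000632). The lowest of the cold knockout values came from replicate 1, the array with the lowest muscle mean (2.41). In controls Npas2 rose by 0.75 ± 0.19 in the cold (adjusted p = 0.0264). That call was lost without any 1 of 5 arrays, control replicates 1 (adjusted p = 0.0702), 2 (0.066) and 3 (0.0714) at room temperature and 1 (0.0947) and 3 (0.0544) at 4 °C. Readings this near the array medians have no measured background beside them here, so a fold against them need not be the ratio of RNA.

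**Figure D3:**
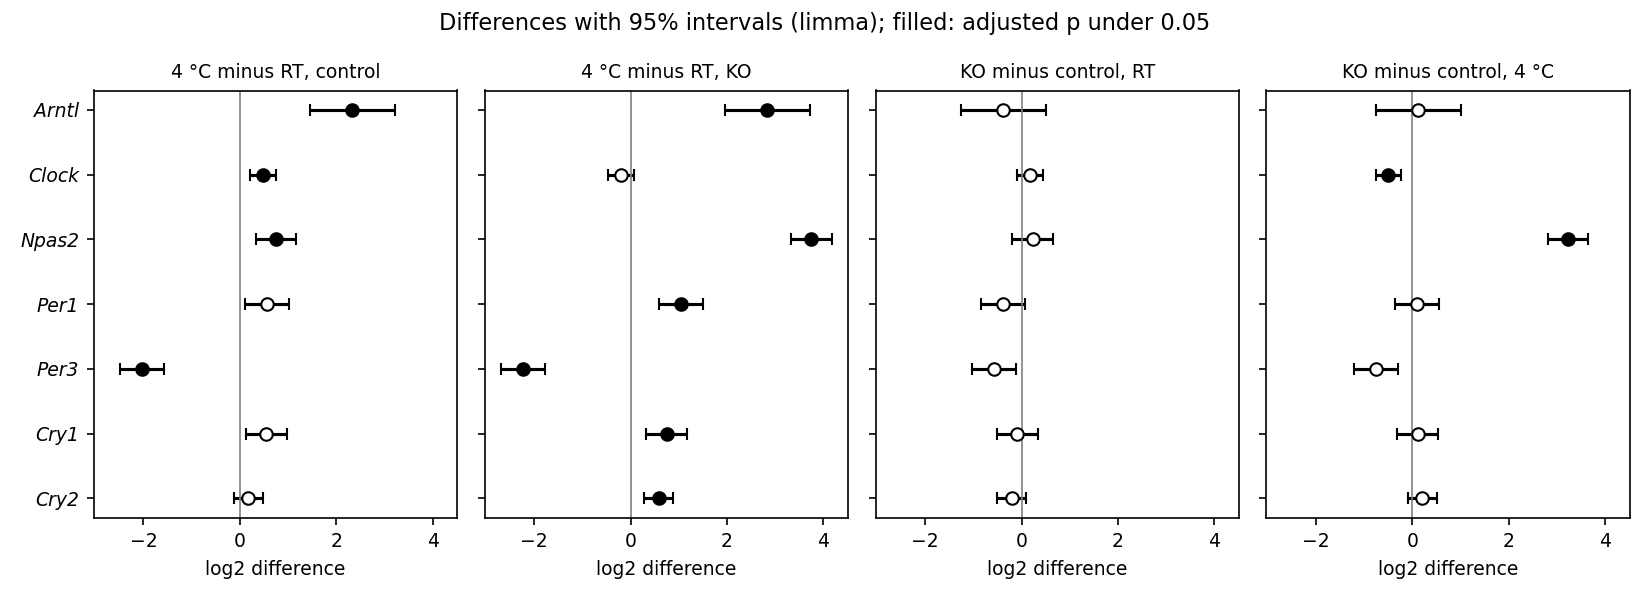
Log2 differences (x axis) of the 7 clock genes with 95% intervals from limma, in 4 panels for cold in controls, cold in knockouts, and genotype at room temperature and at 4 °C. Filled points have an adjusted p under 0.05, and Npas2 reaches 3.74 in cold knockouts against 0.75 in cold controls.

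Among the repressors, Per3 moved farthest and in the opposite direction to Arntl. Its product belongs to the Period family. Per3 read 6.04, 5.85 and 5.46 in controls at room temperature and 3.70, 3.37 and 4.17 at 4 °C. In knockouts it read 5.05, 5.55 and 5.05 at room temperature and 2.87, 2.96 and 3.13 at 4 °C. The temperatures did not overlap in either genotype. Cold knockouts lay below all cold controls, and at room temperature the genotypes overlapped. It fell 4.09-fold in cold controls (-2.03 ± 0.21, adjusted p = 0.000159) and 4.68-fold in cold knockouts (-2.23 ± 0.21, adjusted p = 9.25e-05). With the control array of conflicting label counted as cold, the change in controls was -1.77 (adjusted p = 0.117), and with it left out -2.19 (adjusted p = 0.000406). These cold responses differed by -0.19 (95% interval -0.84 to 0.45, adjusted p = 0.899). The knockout levels differed from control by -0.57 ± 0.21 at room temperature (adjusted p = 0.252) and -0.76 ± 0.21 at 4 °C (adjusted p = 0.0561), and neither was called. The difference at 4 °C did pass without control replicate 3 at room temperature (0.0487), control replicate 2 at 4 °C (-0.95, adjusted p = 0.0255) or knockout replicate 2 at room temperature (0.0461).

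Per1, a Period gene that also answers to cyclic AMP and glucocorticoids, moved the other way from Per3. It read 7.41, 7.61 and 7.73 in controls at room temperature and 8.29, 8.05 and 8.08 at 4 °C. In knockouts it read 7.79, 6.73 and 7.07 at room temperature and 8.17, 8.27 and 8.28 at 4 °C. Every cold array exceeded every array at room temperature, and the 2 genotypes overlapped at both temperatures. Per1 rose 2.06-fold in cold knockouts (1.04 ± 0.21, adjusted p = 0.00759), while the difference in controls, 0.56 ± 0.21, was not called (adjusted p = 0.115). The responses differed by 0.48 (95% interval -0.16 to 1.12, adjusted p = 0.655), so a difference between genotypes was not shown. Knockout replicate 1 at room temperature again mattered. With the muscle mean as a covariate the genotype difference was -0.12 at room temperature (adjusted p = 0.923) and 0.20 at 4 °C (adjusted p = 0.689), and the rise in cold controls passed (0.65, adjusted p = 0.0485). Without that array Per1 was lower in knockouts than in controls at room temperature (-0.68, adjusted p = 0.043), against -0.38 ± 0.21 with it (adjusted p = 0.484), and the rise in cold controls passed (adjusted p = 0.0159).

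The cryptochromes Cry1 and Cry2, the main repressors of the Arntl pairs, showed smaller differences. Cry1 read 5.27, 5.53 and 5.40 in controls at room temperature and 6.07, 6.24 and 5.54 at 4 °C. In knockouts Cry1 read 5.48, 5.28 and 5.18 at room temperature and 6.46, 5.84 and 5.88 at 4 °C. The lowest cold control only just cleared its room temperature group, and the genotypes overlapped. Cry1 rose 1.68-fold in cold knockouts (0.75 ± 0.20, adjusted p = 0.0336) and differed by 0.55 ± 0.20 in cold controls (adjusted p = 0.101). The first call ended when knockout replicate 2 was left out (adjusted p = 0.0973) or 3 (0.109) at room temperature or replicate 1 at 4 °C (0.133). The second difference passed without control replicate 3 at 4 °C (0.76, adjusted p = 0.0187). The responses of Cry1 differed by 0.20 (95% interval -0.41 to 0.80). With the muscle mean as a covariate that value was 0.34 (adjusted p = 0.766), and the genotypes differed by -0.33 at room temperature (adjusted p = 0.654) and 0.0089 at 4 °C (adjusted p = 0.99).

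Cry2 had the narrowest range of the 7 genes after Clock. It read 5.92, 5.66 and 6.09 in controls at room temperature and 6.00, 6.09 and 6.10 at 4 °C. In knockouts it read 5.53, 5.85 and 5.68 at room temperature and 6.20, 6.14 and 6.48 at 4 °C. Control values overlapped between temperatures, whereas those of the knockouts did not, and every cold knockout lay above every cold control. Cry2 rose 1.5-fold in cold knockouts (0.58 ± 0.14, adjusted p = 0.0182). Leaving out knockout replicate 1 (adjusted p = 0.0689) or 3 (0.0536) at room temperature, or replicate 3 at 4 °C (0.075), ended that call. In controls it differed by 0.17 ± 0.14 (adjusted p = 0.528), and the 2 responses differed by 0.41 (95% interval -0.01 to 0.83, adjusted p = 0.529). Neither cryptochrome was called between genotypes, with differences of -0.09 ± 0.20 and -0.20 ± 0.14 at room temperature and 0.11 ± 0.20 and 0.21 ± 0.14 at 4 °C for Cry1 and Cry2 in turn.

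Ordered by group mean, Per3 stood highest in controls at room temperature (5.78), then in knockouts at room temperature (5.21), cold controls (3.75) and cold knockouts (2.99). Neighbours that differ by genotype alone were not called, and the middle pair, which differs in both genotype and temperature, was not tested. Arntl had cold knockouts (6.66) and cold controls (6.54) at the top, which overlapped, and the room temperature groups at 4.20 and 3.82, which also overlapped. For Npas2 the order was cold knockouts (5.66), cold controls (2.43), knockouts at room temperature (1.91) and controls at room temperature (1.68). The array with the conflicting temperature label read 3.95 for Arntl and 5.46 for Per3. Both of its values lay below those of its 2 group mates, and outside the range of every cold array.

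**Figure D4:**
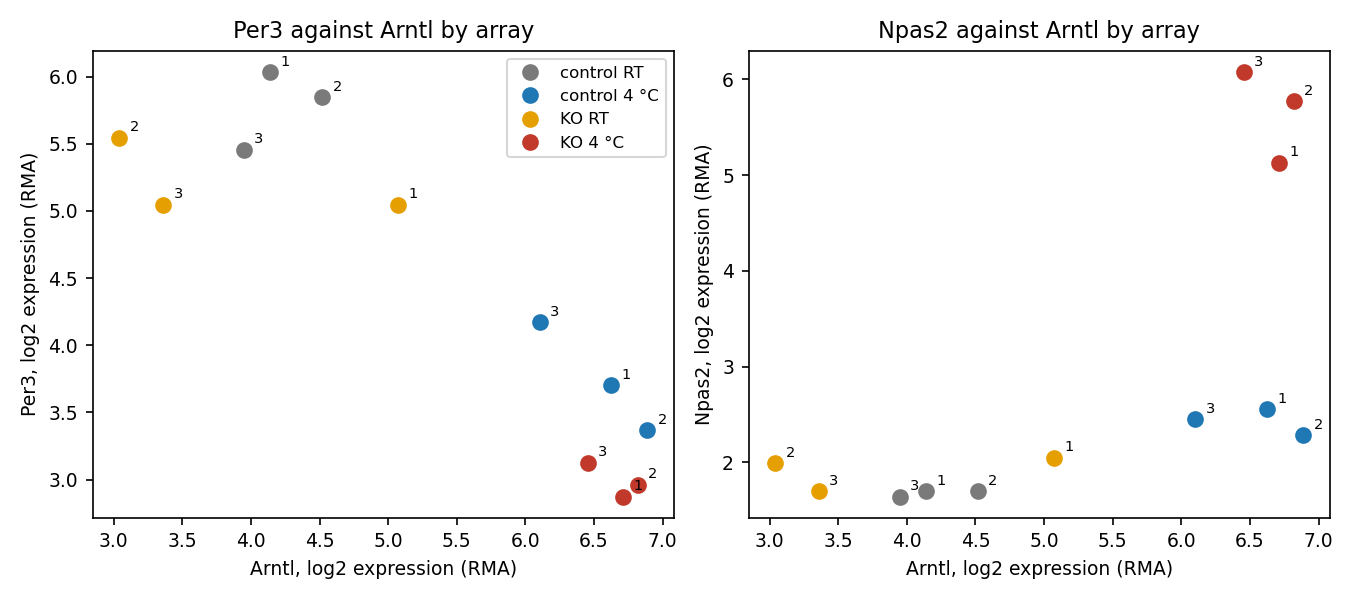
Each point is 1 array, with Per3 (left) or Npas2 (right) on the y axis against Arntl on the x axis, all in log2 expression (RMA), coloured by group and numbered by replicate. Cold arrays have Arntl at or above 6.10 and Per3 at or below 4.17, and Npas2 is raised to 5.13 or more in the cold knockouts.

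Within groups, members were compared by their deviations from the group mean over the 12 arrays. Of 21 pairs, 0 passed after Benjamini-Hochberg adjustment in an exact two-sided permutation test that exchanged arrays within groups, and 5 had an unadjusted p under 0.05 (4 by Spearman's rho). The lowest adjusted p was 0.0891. Arntl and Cry2 deviated in opposite directions, with Pearson r = -0.66 (permutation p = 0.00694, adjusted p = 0.0891). Their Spearman rho was -0.66 (permutation p = 0.0201, adjusted p = 0.192), and r was -0.57 without the 2 arrays farthest from the median of Arntl. Arntl and Clock had r = 0.47 (permutation p = 0.00849, adjusted p = 0.0891) and rho = 0.67 (permutation p = 0.0108, adjusted p = 0.192), with r of 0.76 without the 2 arrays farthest out. Clock and Per3 had r = -0.73 (permutation p = 0.0409, adjusted p = 0.181) and rho = -0.66 (permutation p = 0.0448), and r of -0.40 without the 2 arrays farthest from the median of Clock. Cry1 had r = 0.80 with Clock (permutation p = 0.0432) and 0.50 with Arntl (permutation p = 0.0378), both with adjusted p = 0.181. Without the 2 arrays farthest out these were 0.63 and 0.64. The highest r, 0.81 for Arntl and Per1 (permutation p = 0.15), was 0.11 without the 2 arrays farthest out. Without control replicate 3 at room temperature, Clock and Per3 alone passed by Pearson's r (r = -0.87, permutation p = 0.00231, adjusted p = 0.0486 over 21 pairs). By Spearman's rho this pair did not pass (rho = -0.81, permutation p = 0.00926, adjusted p = 0.17).

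The other clock genes give the setting of these changes. Of 5 measured genes of the second loop, Nfil3, which represses through D-boxes, rose in the cold and 4 were not called, in each genotype, where 4.85% of all probe sets were called higher in controls and 4.32% in knockouts. Nfil3 ranged from 4.99 to 5.99 in controls at room temperature and from 6.82 to 7.70 at 4 °C, a 3.18-fold rise (1.67 ± 0.38, adjusted p = 0.0134) that ended on leaving out control replicate 1 at room temperature (adjusted p = 0.0613) or replicate 2 at 4 °C (0.0628). In knockouts it rose 4.28-fold (2.10 ± 0.38, adjusted p = 0.00422). Nr1d1, the gene of REV-ERB alpha, overlapped in all groups, with means of 6.58, 6.52, 6.37 and 6.05. The medians of this list were 0.30 and 0.13 in the cold and -0.08 and -0.37 between genotypes at room temperature and 4 °C.

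Of 6 measured PAR bZIP factors and E-box repressors, Tef and Hlf, activators through D-boxes, fell in the cold in controls and 4 were not called, with 0 up, where 6.23% of all probe sets were called lower. In knockouts Tef, Hlf and Bhlhe41 fell, 3 of 6, where 4.7% were. Tef ranged from 4.08 to 4.58 in controls at room temperature and 3.27 to 3.67 at 4 °C (-0.90 ± 0.15, adjusted p = 0.00285). In knockouts it ranged from 3.64 to 3.97 and from 2.83 to 2.90 (-0.91 ± 0.15, adjusted p = 0.003). It was also lower in knockouts at 4 °C (-0.65 ± 0.15, adjusted p = 0.0272), a call lost without control replicate 1 or 2 or any knockout array at that temperature (adjusted p from 0.0694 to 0.114). Hlf fell by 0.88 on the log2 scale in cold controls (adjusted p = 0.0086) and by 0.67 in cold knockouts (adjusted p = 0.0401), the second call being lost without control replicate 1 at 4 °C or any knockout array (adjusted p from 0.0524 to 0.139). Bhlhe41, an E-box repressor, fell by 0.70 in cold knockouts (adjusted p = 0.0252), which did not pass without knockout replicate 1 or 2 at either temperature (adjusted p from 0.089 to 0.106). Dbp differed by -1.21 ± 0.43 (adjusted p = 0.0962) in controls and by -1.40 ± 0.43 (adjusted p = 0.0623) in knockouts, with controls spread from 6.06 to 7.74 at room temperature and from 4.98 to 6.73 at 4 °C. The list medians were -0.61 and -0.68 in the cold.

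Of 10 measured kinases, ubiquitin ligase parts and other partners, 1 rose and 1 fell in cold controls, and 1 rose and 2 fell in cold knockouts. Of all probe sets, 4.85% were called higher and 6.23% lower in cold controls, and 4.32% and 4.7% in cold knockouts, so single calls among 10 genes lie near the background. Btrc and Fbxw11 encode related beta-TrCP subunits that mark Period proteins for destruction, and they moved oppositely. Btrc fell by 0.79 in controls (adjusted p = 0.00295) and by 0.56 in knockouts (adjusted p = 0.0219), the latter lost without knockout replicate 2 at room temperature or any knockout array at 4 °C (adjusted p from 0.0577 to 0.0963). Fbxw11 rose by 0.62 (adjusted p = 0.00162) and 0.38 (adjusted p = 0.0284), the latter lost without knockout replicate 2 or 3 at either temperature (adjusted p from 0.0663 to 0.108). Usp2, a clock-driven deubiquitinase, was 2.30-fold lower in knockouts at 4 °C (-1.20 ± 0.16, adjusted p = 0.000497), with 6.27 to 6.49 in knockouts against 7.36 to 7.72 in controls, and this call held with each single array left out. It fell by 0.76 in cold knockouts (adjusted p = 0.0101) and differed by -0.23 ± 0.16 in cold controls, and these responses were not called different (-0.53 ± 0.23, adjusted p = 0.472). Cirbp, a cold-inducible RNA-binding protein, was not called in any of the 5 comparisons. Of the 21 genes of the 3 lists, limma called 0 for a difference in cold response between genotypes. It called 0.306% of all probe sets there, so 0 of 21 lies near the background. At an unadjusted p under 0.05 there were 3 of 21, with no share of all probe sets counted at that threshold.

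**Figure D5:**
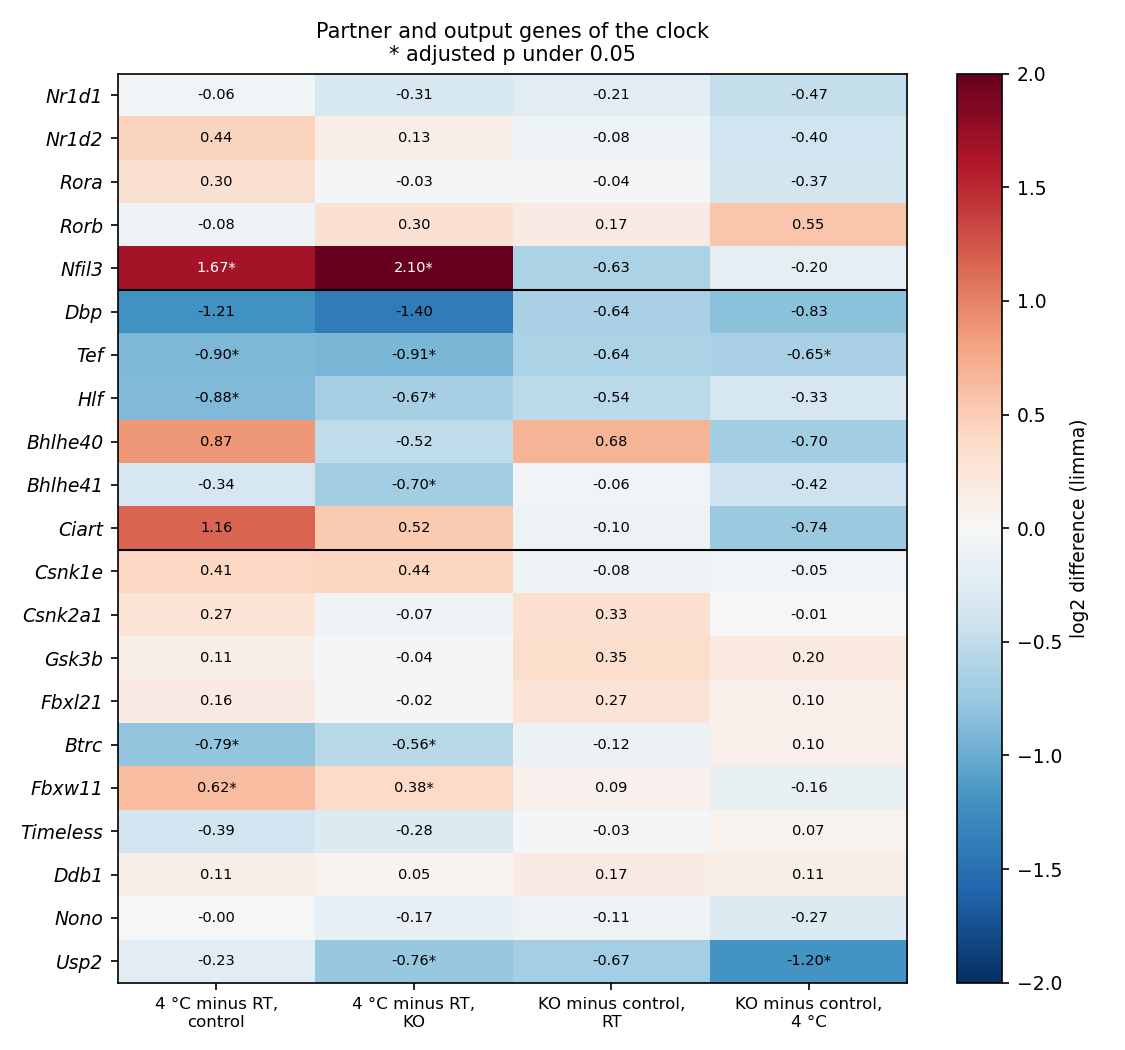
Log2 differences from limma (colour and number) for 21 partner and output genes of the clock in rows, by comparison in columns, with an asterisk at an adjusted p under 0.05. Nfil3 rises and Tef and Hlf fall in the cold in both genotypes, and Usp2 is lower in cold knockouts than in cold controls (-1.20).

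Genes with the pattern most like each member were sought by Pearson r over the 12 arrays, among 8001 other genes with a mean of at least 4 (8002 for Npas2). These values describe arrays that share temperature and genotype groups, and carry no test. For Arntl they were Sav1 (0.976), Asl (0.969) and Socs2 (0.962), and for Per3 they were Nudt12 (0.983), Cdkn2c (0.981) and Tmem94 (0.974). Npas2 was most like Dnajb12 (0.971), Yrdc (0.958) and Ube2j1 (0.953). Per1 was most like 2900026A02Rik (0.953), AW011738 (0.946) and Nfil3 (0.945), the last also a clock gene. Cry1 was most like Wdr60 (0.951), Ppfibp1 (0.945) and Enc1 (0.941), and Clock most like Dhx30 (0.934), Dnajc13 (0.899) and Naa25 (0.898). The likeness was weakest for Cry2, with Taf5l (0.855), Myo1d (0.851) and Arl15 (0.847).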

How the data were processed

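Brown adipose tissue was measured on 12 arrays, 3 per group, and groups follow the titles and characteristics. The authors deposited log2 expression values made with RMA, per the submitters' processing notes (version not given in the sources used here). RMA corrects background and quantile-normalizes, which hides shifts shared by most genes. Raw intensities were not used, so background is unknown and 3 arrays per group limit the precision. Of 41345 probe sets, 23521 carried 1 symbol (1814 several, 16010 none) in the platform annotation, and 23328 matched RefSeq by Entrez ID.

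Group means were fitted to all 12 arrays with limma 3.58.1 (R 4.3.3, lmFit and eBayes), with Benjamini-Hochberg adjustment over the 23521 probe sets and a threshold of 0.05. Errors are limma's SE or the SD over 3 arrays. The fit was tested on simulated data. Replicate numbers did not pair the arrays (see the processing alternatives). Alternatives left out each array, moved the array of conflicting label, and changed the block, groups fitted, filter, probe sets, moderation, centring and muscle covariate. Those for genes outside the core loop were chosen after seeing the data.

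Named are the members, the called genes of each list (at most the 3 largest per comparison), and the 3 genes most like each member. A few further genes of the lists, Nr1d1, Dbp and Cirbp, were chosen after their values were seen. The members and lists were chosen with earlier results of these data known.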

Additional observations from a re-analysis of the deposited data

Results flagged for a closer look

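Npas2 was marked because its cold response differed between genotypes in the test of the difference itself. The response in knockouts exceeded that in controls by 3.00 ± 0.28 (log2 difference ± SE, limma's adjusted p = 0.000515), with 3 of 3 cold knockouts above every other array.

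Atf3, a stress-induced transcription factor of the cyclic AMP list, was marked by the same test in the opposite direction. It rose by 3.73 in cold controls, from 3.37 ± 0.27 to 7.10 ± 0.47 (SD, n = 3), and by 1.38 in cold knockouts, from 4.36 ± 0.40 to 5.74 ± 0.47, a difference of -2.36 ± 0.40 (SE, adjusted p = 0.0314, limma). The call was lost without 9 of the 12 arrays, taken 1 at a time, with adjusted p from 0.0569 to 0.101. It held without control replicate 3 at 4 °C, knockout replicate 2 at room temperature or knockout replicate 1 at 4 °C. It was lost too with all probe sets tested (0.119), with the muscle mean as covariate (0.0639), and with the array of conflicting label counted as cold (-1.25, adjusted p = 0.897).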

How the results depend on the processing

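Over the 35 results for the 7 genes, 675 of 723 values under alternatives kept their direction and side of the threshold. In 32 a call was lost, in 9 gained and in 7 the sign changed. With 1 array left out, called genes ranged from 0 to 1 for genotype at room temperature, 1 to 3 for genotype at 4 °C, 2 to 5 for cold in controls, 4 to 6 for cold in knockouts and 1 to 1 for the difference in response. Counting control replicate 3 at room temperature as cold gave 1 call for genotype at 4 °C and 0 for cold in controls. Fitting the 2 groups alone gave 1 for genotype at 4 °C. Testing all 41345 probe sets gave 1 for genotype at 4 °C and 2 for cold in controls, with more features to adjust over. With a mean of at least 3 the difference in response had 0 calls, since Npas2 was not tested. Without control replicate 3 at room temperature 1 pair of genes was correlated, against 0. Other causes were not tested. With 1 array left out, Arntl between genotypes ran from -1.004 to 0.014 at room temperature (the latter without knockout replicate 2) and from -0.093 (without control replicate 3) to 0.30 at 4 °C. Cry1 between genotypes at 4 °C ran from -0.096 without control replicate 3 and -0.091 without knockout replicate 1 up to 0.25. Its difference in response ran from -0.011 and -0.0060 without the same arrays up to 0.34. The difference in response of Per3 ran from -0.39 to 0.018 (without control replicate 3 at 4 °C), and Nr4a3 between genotypes at 4 °C changed from a called -0.68 to 0.097 with the array of conflicting label counted as cold. Same-numbered arrays had deviations correlated at -0.18 to 0.16, and 4 of 12 arrays correlated best with their own number. The replicate block gave 0, 2, 4, 6 and 1 calls, as without it, and moved the count over all probe sets in the difference in response from 72 to 47. That count was 21 to 123 with 1 array left out, 17 with the array of conflicting label moved, 22 with all probe sets and 40 with the muscle covariate. Over all probe sets, genotype at room temperature gave 404 calls, against 177 with that array moved, 245 in the 2 groups alone, 193 with the muscle covariate and 255 to 458 with 1 array left out. Genotype at 4 °C gave 1365, and 842 to 1345 with 1 array left out. Cold gave 2606 in controls (1608 to 2875) and 2123 in knockouts (1276 to 2300), and 0 and 1044 with that array moved. That move left the knockout differences as they were and changed the spread shared over all groups.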

Other observations

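Targets of cyclic AMP signalling, the arm through which cold acts on brown fat, were also followed, since Per1 belongs among genes that answer to it. In cold controls 9 of 10 rose (median log2 difference 2.42, against -0.01 for all probe sets) and in cold knockouts 7 of 10 rose (median 1.46), where 4.85% and 4.32% of all probe sets were called higher. Ppargc1a, a coactivator of mitochondrial and thermogenic genes, rose by 3.41 ± 0.25 (SE) in controls and 1.85 ± 0.25 in knockouts (limma, adjusted p = 2.09e-05 and 0.00082). These cold responses differed by -1.56 ± 0.36, which limma did not call (adjusted p = 0.106). Ppargc1a averaged 11.25 ± 0.28 (SD, n = 3) in cold controls and 9.83 ± 0.20 in cold knockouts, a genotype difference of -1.42 ± 0.25 (adjusted p = 0.00473). With the control array of conflicting label counted as cold that difference was -0.65 (adjusted p = 0.709). Nr4a3, an orphan nuclear receptor, rose by 3.29 and 3.55. It was lower in knockouts at room temperature (-0.94, adjusted p = 0.0117), a call lost without control replicate 3 (0.0527) or knockout replicate 3 (0.052), and at 4 °C (-0.68, adjusted p = 0.0299), lost without replicate 1 or 2 of either genotype (adjusted p from 0.0697 to 0.121) and turned to 0.097 with that array counted as cold (adjusted p = 0.968). Dio2, which activates thyroid hormone, rose by 2.72 in cold controls (adjusted p = 0.000503) and by 2.03 in cold knockouts (adjusted p = 0.00305). These 2 responses of Dio2 were not called different (-0.70, adjusted p = 0.715). Atf3 was lower in cold knockouts by -1.36 (adjusted p = 0.0126), lost without control replicate 1 (0.0577) or knockout replicate 2 (0.0549) or 3 (0.0633) at 4 °C, and -0.37 with the array of conflicting label counted as cold (adjusted p = 0.892). Counting that array as cold also ended the cold calls in controls for Ppargc1a, Nr4a3, Dio2 and Atf3 (adjusted p from 0.131 to 0.208). In knockouts it ended those for Ppargc1a (0.159), Dio2 (0.0856) and Atf3 (0.462). No knockout array was moved, so the cold differences in knockouts were themselves unchanged. What changed was the spread that limma shares over all groups, and with it the adjusted p.

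Of 10 glucocorticoid targets, 5 rose in cold controls (median 0.74) and 6 in cold knockouts (median 0.92), where 4.85% and 4.32% of all probe sets were called higher. The other 5 and 4 were not called, among them Tsc22d3, with differences of -0.40 and 0.12. Errfi1, a feedback inhibitor of growth factor receptors, rose by 1.57 and 1.76, and Zbtb16, a transcription factor, by 1.03 and 1.69 (limma, adjusted p from 0.000429 to 0.00634 over these 4 values). Ddit4 rose by 1.58 in knockouts (adjusted p = 0.0103) and differed by 0.82 in controls (adjusted p = 0.152). For a difference between the cold responses of the genotypes limma called 0 of the 10 targets, and 0.306% of all probe sets. Dusp1, a MAP kinase phosphatase, rose by 1.34 in knockouts (adjusted p = 0.0108) and by 1.13 in controls (adjusted p = 0.0233), the latter call lost without control replicate 2 at room temperature (0.095) or replicate 1 (0.0916) or 2 (0.0619) at 4 °C. Between genotypes, Lcn2, a secreted lipid-binding protein, was higher in knockouts by 2.25 at room temperature and 2.28 at 4 °C (adjusted p = 0.00614 and 0.00203). The room temperature call was lost with the array of conflicting label counted as cold (2.13, adjusted p = 0.0544) and with the 2 groups fitted alone (0.0679). Counting that array as cold also ended the calls in controls for Errfi1 (0.162), Zbtb16 (0.57, adjusted p = 0.481) and Dusp1 (0.18). Tsc22d3 was lower in knockouts at room temperature by -0.90 (adjusted p = 0.0469), a call that held only without control replicate 1 at room temperature among the 12 left-out arrays (lost otherwise, adjusted p from 0.0524 to 0.159).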
